A study of Homo sapiens with 6 samples.

Results

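Transcripts of 10 enzymes of the hexosamine biosynthetic pathway (HBP) and of O-GlcNAc cycling were followed in HepG2 cells that carried either of 2 forms of the transcription factor VEZF1. The genes were chosen by name, for their place in the pathway. They are 10 of the 59608 genes in the count table, and every one of them had counts in all 6 libraries. The genes comprise GFPT1, GFPT2, GNPNAT1, PGM3 and UAP1 for synthesis, with UAP1L1 as a paralog of UAP1. The others are NAGK for salvage, AMDHD2 for breakdown, and OGT and OGA for addition and removal of the sugar.

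The HBP diverts a part of the cell's fructose phosphate into UDP-GlcNAc, the donor of N-acetylglucosamine for glycans and for the single sugar that O-GlcNAcylation places on serines and threonines of nuclear and cytoplasmic proteins. Its first step joins fructose phosphate with an amino group of glutamine and is carried out by glutamine-fructose-6-phosphate amidotransferase (GFAT), encoded by GFPT1 and GFPT2. In liver, as in other tissues, this step is known to limit the flux of the pathway, and the sugar is added by a single transferase and taken off by a single hydrolase.

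HepG2 is a long-established line of human liver cancer cells. In both groups endogenous VEZF1 was targeted with a lentiviral sgRNA, after which wild-type VEZF1 (VEZF1-WT, 3 libraries) or a mutant with alanine in place of 2 serines that carry O-GlcNAc (VEZF1-2A, 3 libraries) was re-expressed. Cells with unaltered VEZF1, or without re-expression, were not analysed here, so each comparison is between the 2 re-expressed forms. Neither the labels nor the methods say whether the cells were 1 clone or a pool, or whether the replicates came from separate cultures, so the spread between them may be technical.

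The libraries held from 28756765 to 57199396 counts. Counts from 1 to 10 were even numbers in 81.0% to 83.1% of genes, and a low count therefore usually differed from another by 2 or more. All 8 hepatic markers were present, with means over the 6 libraries from 31.9 CPM (counts scaled to a common library size) for TTR to 6116 CPM for APOB. Of the 9 markers of other cell types, CD68 was the highest with a mean of 148.9 CPM, while DCN was at 0 in 5 of the 6 libraries and PTPRC, which defines leukocytes, reached at most 0.12 CPM. The summed level of those 9 markers was 115.9 to 176 CPM in VEZF1-WT and 120.7 to 190.3 CPM in VEZF1-2A. Most of that sum was CD68, with 112.4 to 171.6 CPM in VEZF1-WT and 116.4 to 184.8 CPM in VEZF1-2A. VEZF1 had 59.3, 45.6 and 40.0 CPM in VEZF1-WT replicates 1, 2 and 3 and 46.2, 48.6 and 38.9 CPM in those of VEZF1-2A. Its counts, summed per gene, cannot be split between the endogenous and the re-expressed gene. Replicate 3 stood apart in both groups. AFP, the fetal liver protein, had 3643 CPM in replicate 3 of VEZF1-WT and 3482 CPM in replicate 3 of VEZF1-2A, against 1763 to 2065 CPM in the other 4 libraries.

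VEZF1 is known to bind runs of G, so the promoter windows of the enzymes were searched for GGGGGG on either strand. RefSeq (GRCh38.p14) windows of 250 bases before and 50 bases after a start site were at hand for 9 of the 10 genes, all but UAP1L1. The run was found in 4 of these 9 genes, namely GFPT1, GFPT2, PGM3 and UAP1, and in 21.2% of the 27305 gene symbols with such a window. Counted by window, 5 of 13 windows of the members held it (38.5%), against 18.8% of all 35116 windows. UAP1 gave 2 of these 5 windows, which overlap and hold the same run. The stretches are shown because they are where the letters that VEZF1 is known to bind lie in these genes, with the run in capitals and 15 bases on each side. They are written in the direction of transcription, and a run of C is a run of G on the other strand. A match describes the letters only.
GFPT1, chr2:69387346-69387381, minus strand: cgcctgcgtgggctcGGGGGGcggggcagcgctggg
GFPT2, chr5:180353475-180353510, minus strand: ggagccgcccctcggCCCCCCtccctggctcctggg
PGM3, chr6:83193900-83193938, minus strand: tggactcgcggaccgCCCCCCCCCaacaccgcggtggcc
UAP1, chr1:162561661-162561696, plus strand: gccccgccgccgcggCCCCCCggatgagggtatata

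None of the 10 enzymes passed the test for a difference between the 2 forms of VEZF1. The number of these genes with an adjusted p-value under 0.05 was 0 (edgeR's quasi-likelihood test, two-sided, Benjamini-Hochberg adjustment over all 19111 genes tested), as it was for all genes (0%). At an unadjusted p-value under 0.05 it was also 0 of 10, where 408 genes, 2.13% of those tested, passed. With other tools the count for the members was also 0 of 10 at an unadjusted p-value under 0.05, in DESeq2 and in limma voom. Of all 19111 genes tested, 219 passed in DESeq2 and 432 in limma voom. Of the 10 genes, 5 were higher in VEZF1-WT and 5 were lower, by point estimate, and their median log2 fold change (VEZF1-WT over VEZF1-2A) was 0.01, against 0.00 over all genes tested. The median size of the log2 fold change, regardless of sign, was 0.04 for the 10 genes and 0.07 for all genes tested.

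**Figure D1:**
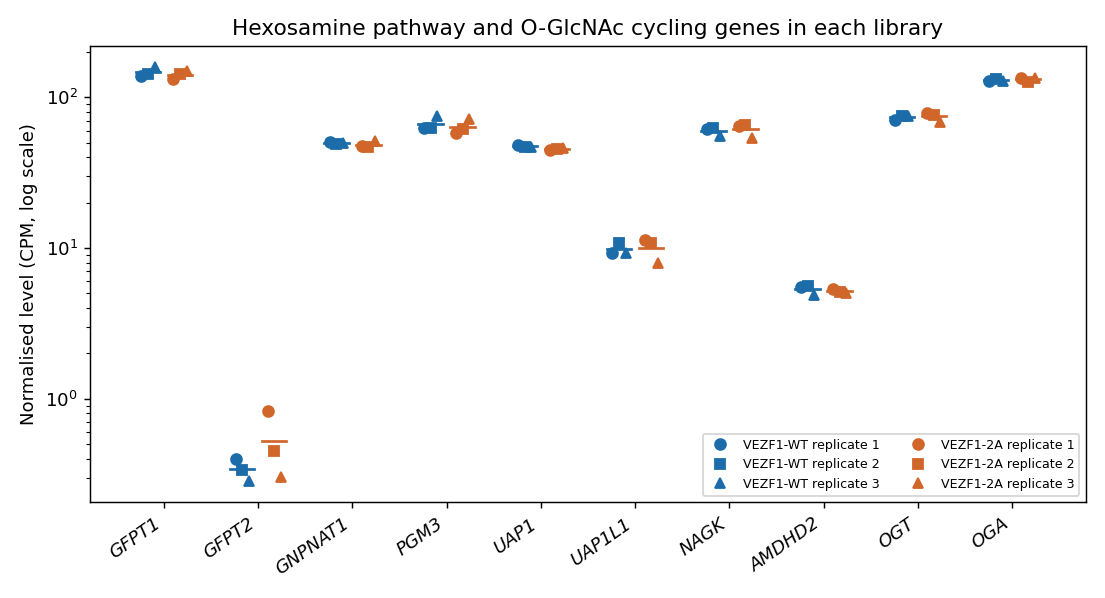
Level of each gene in each library in CPM on a log scale, with VEZF1-WT in blue and VEZF1-2A in orange. Symbols mark the replicate number and bars the group means. GFPT2 lies under 1 CPM in every library, and the groups overlap for every gene but UAP1.

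GFPT1 encodes GFAT1, the isoenzyme that the study is about. It lies on the minus strand of chromosome 2 (GRCh38, 69319780 to 69387250), with 21 exon blocks of 8851 bases in all. It was present at 139, 143 and 160 CPM in VEZF1-WT replicates 1, 2 and 3 and at 133, 143 and 149 CPM in VEZF1-2A. The groups overlapped, with the highest value of each group in replicate 3. The mean of VEZF1-WT was 147 ± 10.9 CPM (SD, n = 3) and that of VEZF1-2A was 142 ± 8.02 CPM (SD, n = 3). The log2 fold change was 0.06, with a standard error of 0.07. The 95% confidence interval of the difference ran from 0.935-fold to 1.16-fold, and the unadjusted p-value was 0.431. The adjusted p was 0.9996 for GFPT1 and for each of the other 9 genes (edgeR).

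GFPT2 encodes the other GFAT isoenzyme (chromosome 5, minus strand, 180300698 to 180353336). Its raw counts were 19, 12 and 16 in VEZF1-WT, against 24, 18 and 10 for the mutant, and few reads thus stand behind each value. Scaled to library size these were 0.401, 0.337 and 0.284 CPM in VEZF1-WT and 0.823, 0.45 and 0.302 CPM in VEZF1-2A. A single library, replicate 1 of VEZF1-2A, was well above the other 5. The log2 fold change of −0.60 had a standard error of 0.42 and an unadjusted p-value of 0.186, with an interval from 0.343-fold to 1.27-fold. Without replicate 1 of VEZF1-2A the log2 fold change of GFPT2 was −0.16, with an unadjusted p-value of 0.732, and without its replicate 3 it was −0.87, with one of 0.0701 (edgeR). A difference of the size of the point estimate could thus not be told from the spread at this depth.

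The ratio of GFPT1 to GFPT2 was then taken within each library, as counts per kb of exon, so that it does not depend on how libraries were scaled. GFPT1 exceeded GFPT2 by 185-fold, 226-fold and 300-fold in VEZF1-WT and by 86.1-fold, 169-fold and 263-fold in VEZF1-2A. In every library almost all GFAT transcript, per length, was GFPT1. On the log2 scale the mean ratio of VEZF1-WT was 7.86 ± 0.35 (SD, n = 3) and that of the mutant was 7.29 ± 0.81 (SD, n = 3). The difference of 0.57 was within the spread (two-sided exact permutation test, p = 0.4, and 1 after adjustment over the 3 ratios compared, where 3 against 3 cannot give less than 0.1). With the length of each gene's principal transcript in place of all its exons, GFPT1 exceeded GFPT2 by 57.9-fold to 202-fold.

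GNPNAT1 acetylates the glucosamine phosphate that GFAT makes. It lies on chromosome 14 (52775193 to 52791668, minus strand) and had 50.5, 48.8 and 49.8 CPM in VEZF1-WT and 47.2, 46.9 and 51.3 CPM in VEZF1-2A. It varied little, with a coefficient of variation of 3.59% over the 6 libraries, and had a log2 fold change of 0.04 (standard error 0.06) and an interval from 0.934-fold to 1.13-fold. GNPNAT1 shares 1426 bases of exon with AL139317.3 on the opposite strand, which holds 14.3% as many counts.

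PGM3, the mutase that moves the phosphate within the sugar, lies on chromosome 6 (83161150 to 83193936, minus strand). It had 62.1, 62.1 and 74.9 CPM in VEZF1-WT and 57.7, 62.0 and 71.7 CPM in VEZF1-2A. Replicate 3 was the highest in each group, 12.8% above the group mean in VEZF1-WT and 12.3% above it in VEZF1-2A. The difference between the groups, 66.4 ± 7.37 CPM (SD, n = 3) against 63.8 ± 7.15 CPM (SD, n = 3), was smaller than either SD. Its log2 fold change was 0.06, from 0.897-fold to 1.21-fold, with an unadjusted p-value of 0.566. PGM3 shares 1087 bases of exon with DOP1A on the opposite strand, which has 28.6% as many counts, and the strand used in counting is not given in the sources used here.

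UAP1 encodes the pyrophosphorylase that completes UDP-GlcNAc. On chromosome 1 (162561506 to 162599842, plus strand), it was counted at 48.3, 46.8 and 47.1 CPM in VEZF1-WT and at 44.9, 45.1 and 45.9 CPM in VEZF1-2A. The groups did not overlap, and UAP1 was the 1 gene of the 10 for which that held, where the groups did not overlap in 7.36% of all genes tested. The step between them was small, 47.4 ± 0.757 CPM (SD, n = 3) against 45.3 ± 0.513 CPM (SD, n = 3), a log2 fold change of 0.07 with a standard error of 0.06. Its unadjusted p-value was 0.27, with an interval from 0.96-fold to 1.14-fold, and the two-sided exact permutation test gave p = 0.1, the smallest that 3 against 3 allow. The log2 fold change of UAP1 lay between 0.05 and 0.08 in all 18 alternative settings.

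UAP1L1, a paralog named for its likeness to UAP1, lies on chromosome 9 (137077517 to 137084539, plus strand). Its levels were 9.25, 10.8 and 9.28 CPM in VEZF1-WT and 11.3, 10.7 and 7.9 CPM in VEZF1-2A. Both the highest and the lowest value were those of VEZF1-2A libraries, so the VEZF1-WT group lay within the range of the other. The log2 fold change was −0.03 with an interval from 0.794-fold to 1.21-fold, and its sign changed when single libraries were left out.

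Per kb of exon, UAP1 exceeded UAP1L1 by 7.99-fold, 6.63-fold and 7.78-fold in VEZF1-WT and by 6.12-fold, 6.44-fold and 8.9-fold in VEZF1-2A. UAP1 and UAP1L1 were thus much closer in level than the 2 GFAT genes, with UAP1 the higher in every library. The mean log2 ratio of VEZF1-WT was 2.90 ± 0.15 (SD, n = 3) and that of the mutant was 2.82 ± 0.29 (SD, n = 3), a difference of 0.08 (two-sided exact permutation test, p = 0.8, and 1 after adjustment over the 3 ratios).

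Salvage and breakdown run beside this route. NAGK, the kinase that returns free N-acetylglucosamine to the pathway, lies on chromosome 2 (71064344 to 71079808, plus strand) and had 61.3, 62.3 and 55.4 CPM in VEZF1-WT and 64.6, 65.5 and 53.8 CPM in VEZF1-2A. Replicate 3 was the lowest of each group, at −7.18% and −12.2% from the group mean. The log2 fold change of NAGK was −0.04, from 0.855-fold to 1.11-fold (unadjusted p-value of 0.648). AMDHD2, the deacetylase that turns N-acetylglucosamine phosphate back toward glucosamine phosphate (chromosome 16, 2520357 to 2531422, plus strand), had 5.49, 5.61 and 4.9 CPM in VEZF1-WT and 5.35, 5.15 and 5.07 CPM in VEZF1-2A. All VEZF1-2A values fell within the range of VEZF1-WT, and the log2 fold change was 0.04, from 0.86-fold to 1.22-fold. AMDHD2 shares exon positions with CEMP1 on the opposite strand (1383 bases) and with AC093525.1 on the same strand (378 bases), and AC093525.1 had 494% as many counts as AMDHD2 itself, so the AMDHD2 level is uncertain.

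OGT, the transferase that adds the sugar, lies on chromosome X (71533104 to 71575892, plus strand). It had 71.0, 75.1 and 75.0 CPM in VEZF1-WT and 78.7, 76.6 and 69.1 CPM in VEZF1-2A. The groups overlapped, with a log2 fold change of −0.02 (standard error 0.07) and an interval from 0.891-fold to 1.09-fold. OGA, the hydrolase that removes the sugar (chromosome 10, 101784443 to 101818465, minus strand), had 128, 132 and 128 CPM in VEZF1-WT and 134, 127 and 135 CPM in VEZF1-2A. It varied least of the 10 genes over the 6 libraries, with a coefficient of variation of 2.55%, and its interval of 0.905-fold to 1.07-fold was the narrowest. The log2 fold change of OGA was −0.02 with an unadjusted p-value of 0.661. Per kb of exon, OGT stood at 0.41, 0.422 and 0.434 of OGA in VEZF1-WT and at 0.436, 0.449 and 0.38 of OGA in VEZF1-2A, so the transcript of the eraser was above that of the writer in every library. The log2 of this ratio differed by 0.00 between the groups (two-sided exact permutation test, p = 1, and 1 after adjustment over the 3 ratios).

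**Figure D2:**
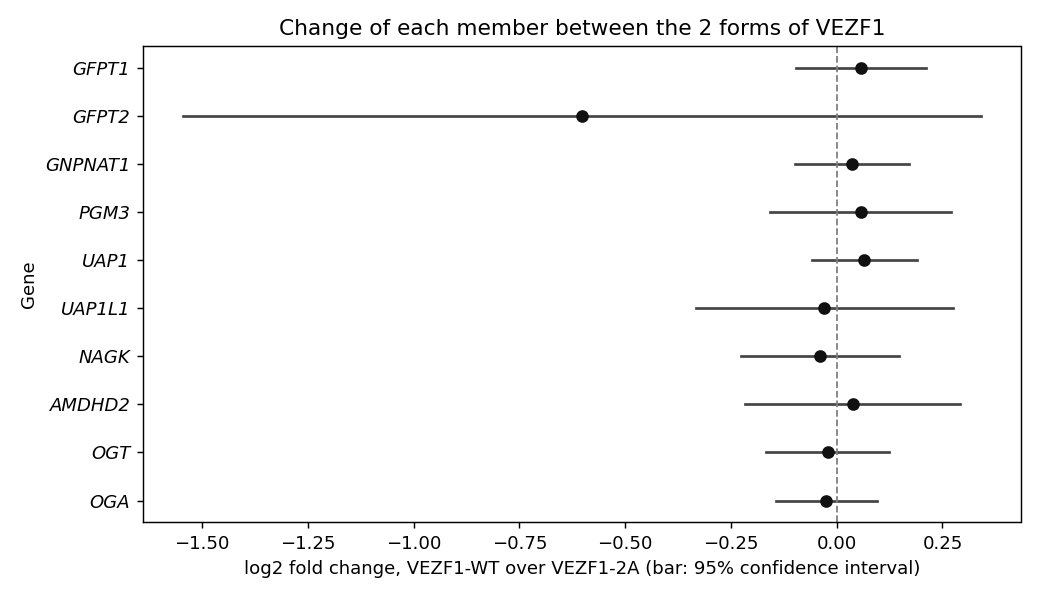
Log2 fold change of each gene (dots, VEZF1-WT over VEZF1-2A) with its 95% confidence interval (bars) from edgeR's quasi-likelihood fit; the dashed line marks no difference. All 10 intervals hold 0, and that of GFPT2 is the widest, from −1.54 to 0.34.

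The intervals say how much of a difference these libraries leave room for. For the 9 genes other than GFPT2, the log2 fold changes lay between −0.04 and 0.07, and the outermost bounds of their 95% intervals were 0.794-fold, for UAP1L1, and 1.22-fold, for AMDHD2. Each interval covers 1 gene at a time. A p-value above the threshold does not show that the 2 forms act alike on these genes, and smaller differences remain within the spread.

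Next, levels of the enzymes were set beside each other as CPM per kb. With the summed exons of the count table as the length, the order was OGA at 18.0 ± 0.46 (SD, n = 6), GFPT1 at 16.3 ± 1.03, UAP1 at 13.5 ± 0.373, GNPNAT1 at 12.2 ± 0.439, PGM3 at 8.71 ± 0.888, OGT at 7.59 ± 0.367, NAGK at 6.8 ± 0.543, UAP1L1 at 1.88 ± 0.243, AMDHD2 at 1.21 ± 0.0623 and GFPT2 at 0.0917 ± 0.0426. The 6 libraries here are those of both groups. The ranges of OGA and GFPT1 overlapped, as did those of PGM3 and OGT and those of OGT and NAGK, so these neighbours were not separated by their spread. OGA was above GFPT1 in 5 of 6 libraries and PGM3 above OGT in 5 of 6. The other neighbours in the order kept apart in every library, and the step from AMDHD2 to GFPT2 was 13.1-fold.

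The order depended on the length in 1 place above all. The table gives NAGK 8897 bases of exon, whereas its longest principal transcript in GENCODE release 29 has 1154 bases. With the principal transcripts as lengths, a choice made after the data were seen, NAGK moved from the seventh place to the first, at 52.4 ± 4.18 CPM per kb (SD, n = 6), while GFPT1 came to the fourth place at 16.7 ± 1.06. GFPT2 stayed last under both lengths, at 0.14 ± 0.0651. AMDHD2 and UAP1L1 changed places, at 3.61 ± 0.186 and 2.94 ± 0.381. UAP1 stood above GFPT1 in 6 of 6 libraries, at 19.5 ± 0.54, where with all exons GFPT1 was above UAP1 in 6 of 6. OGT moved above GNPNAT1, in 4 of 6 libraries, and above PGM3. Only the length was changed here, while the counts stayed those over all exons. Reads outside the principal transcript thus stay in a value, which is not a level of that transcript alone. A difference between the forms of VEZF1 within a gene does not depend on the length.

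**Figure D3:**
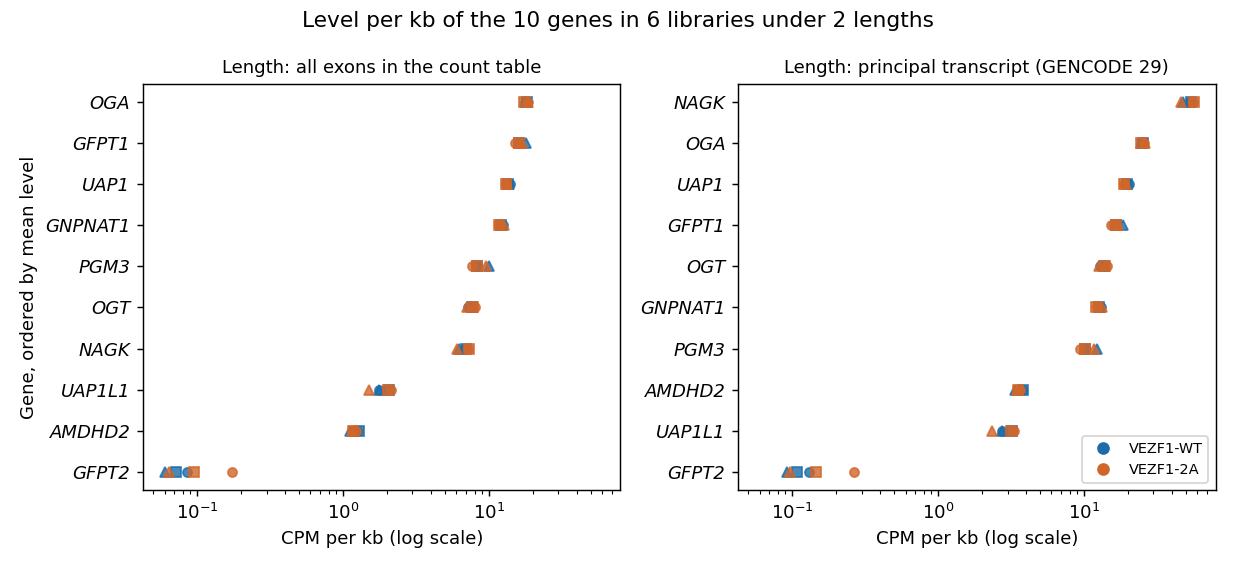
Level per kb on a log scale in the 6 libraries (VEZF1-WT in blue, VEZF1-2A in orange, symbols for the replicate number as circles, squares and triangles for 1, 2 and 3), with the length of all exons on the left and that of the principal transcript on the right. GFPT2 is last in both, and NAGK moves from 6.8 to 52.4 CPM per kb with the same counts over all exons.

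Some of these genes took their highest or lowest value in the same replicate of both groups. GFPT1 and PGM3 were highest in replicate 3 of both groups, and GFPT2, NAGK and AMDHD2 were lowest there. These are 2 and 3 of 10 genes, beside 20% of all genes tested that were highest and 20% that were lowest in replicate 3 of both groups, so the count is near that of genes in general. Over the 6 libraries GFPT1 and PGM3 had a Pearson correlation of 0.956 in log2 CPM, the highest between any 2 of the 10 genes. The lowest was −0.921, between PGM3 and NAGK. GFPT1 had −0.78 with NAGK and −0.828 with GFPT2, and OGT had 0.907 with UAP1L1. These values describe 6 points that share the replicate 3 libraries. Without replicate 3 of both groups, the log2 fold changes were 0.03 for GFPT1, 0.05 for PGM3 and −0.08 for NAGK, with unadjusted p-values of 0.643, 0.483 and 0.254.

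**Figure D4:**
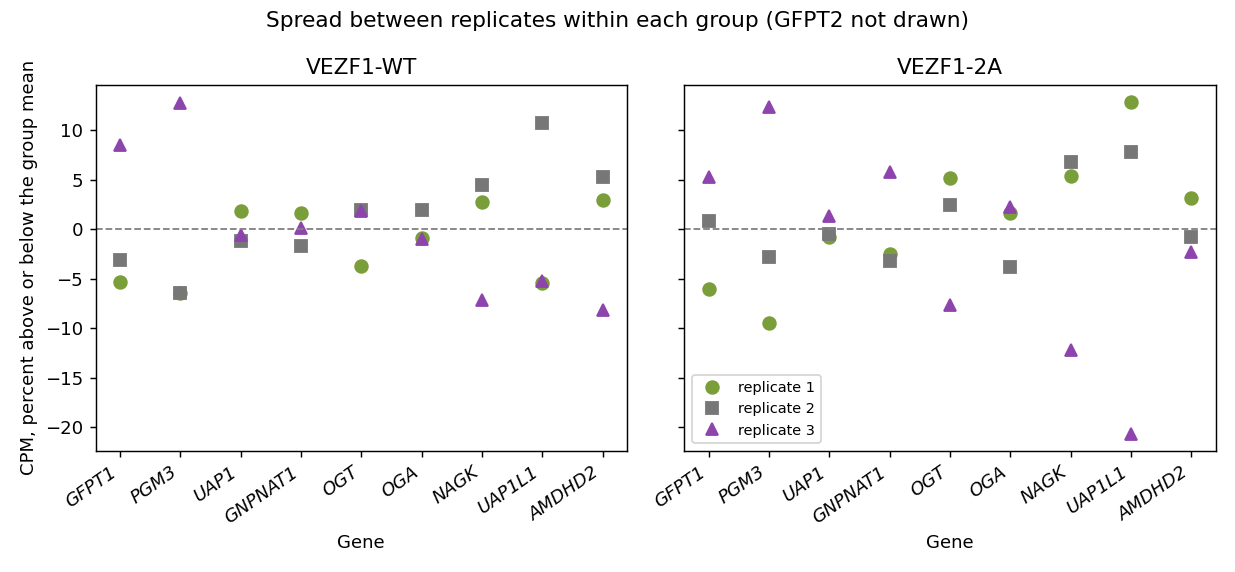
CPM of each replicate as a percentage above or below the mean of its group, for 9 genes in VEZF1-WT (left) and VEZF1-2A (right). GFPT1 and PGM3 have their highest value, and NAGK and AMDHD2 their lowest, in replicate 3 (triangles) of both groups.

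The unfolded protein response is known to act on the hexosamine enzymes through the transcription factor XBP1, so 10 of its genes were taken as a list. None of them (0 of 10) passed an unadjusted p-value under 0.05 between the forms of VEZF1, in either direction (edgeR), where 0.832% of all genes tested passed as higher in VEZF1-WT and 1.3% as lower. By point estimate 6 were higher in VEZF1-WT and 4 lower, with a median log2 fold change of 0.03. Those with the smallest p-values were DNAJB9, a chaperone of the endoplasmic reticulum, at 0.17 (unadjusted p-value of 0.203) and XBP1 at 0.10 (0.359) on the higher side, and ATF6 at −0.04 (0.558) and EDEM1 at −0.02 (0.781) on the lower. By replicate, 6 of the 10 were highest in replicate 3 of both groups (XBP1, HSPA5, DNAJB9, SEL1L, HERPUD1 and SDF2L1) and 1 was lowest (ERN1), beside 20% of all genes tested either way. Among the 8 hepatic markers 6 were highest there, so it was not particular to this list. HSPA5, the main chaperone of the endoplasmic reticulum, had 1298, 1335 and 1578 CPM in VEZF1-WT and 1231, 1303 and 1533 CPM in VEZF1-2A. Without replicate 3 of VEZF1-2A, DNAJB9 (unadjusted p-value of 0.0192 in edgeR) and XBP1 (0.0167) passed the unadjusted threshold as higher in VEZF1-WT. Without replicate 3 of both groups XBP1 did (0.0291 in edgeR), but none of these calls had an adjusted p-value below 0.921. In these settings 973 of 19883 and 833 of 19360 genes tested passed the unadjusted threshold, in either direction. The replicate 3 libraries thus held higher levels of GFPT1, PGM3, HSPA5 and AFP together in both groups, and the part of any of these in the others was not tested.

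The genes that make, carry, use or break down N-acetylglucosamine sugars beyond the 10 enzymes were described in the same way, as a list of 31. Of these, NPL had too few counts to be tested, and of the 30 tested 17 were higher and 13 lower in VEZF1-WT by point estimate, with a median log2 fold change of 0.02. In edgeR's test 0 of 30 had an adjusted p-value under 0.05, beside 0% of all genes tested. At an unadjusted p-value under 0.05 it was also 0 of 30, beside 2.13% of all genes tested. On the higher side the smallest p-values belonged to NANP and NANS, both enzymes of sialic acid synthesis, at log2 fold changes of 0.16 (unadjusted p-value of 0.0938) and 0.15 (0.159). On the lower side HEXA, a lysosomal enzyme, had a log2 fold change of −0.09 (0.164). NANS had 201, 196 and 234 CPM in VEZF1-WT and 171, 179 and 219 CPM in VEZF1-2A. In each group replicate 3 was again the highest, and the groups overlapped. Single genes of this list passed the unadjusted threshold with a library left out. On the higher side these were NANS without replicate 3 of VEZF1-2A (0.00677), NANP without its replicate 1 (0.0453) and RENBP without its replicate 2 (0.0414), by edgeR's unadjusted p-value. NANS also passed without replicate 3 of both groups (0.00824 in edgeR). Of all genes tested in these settings, 973 of 19883, 472 of 19817, 345 of 19329 and 833 of 19360 passed in either direction, in this order.

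Among 8842 genes with a mean of at least 10 CPM, those whose log2 CPM followed GFPT1 most closely over the 6 libraries were SREBF2, a regulator of cholesterol synthesis (r = 0.993), GK, glycerol kinase (r = 0.989), and COPG1, a subunit of the vesicle coat (r = 0.988). SREBF2 had 40.2, 40.9 and 46.9 CPM in VEZF1-WT and 38.4, 41.5 and 42.6 CPM in VEZF1-2A, highest in replicate 3 of each group as GFPT1 was. With 6 points, 69 of the 8842 genes reached a correlation of 0.95 or more with GFPT1.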

How the data were processed

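Per the file headers and labels, the authors deposited raw read counts per gene from 6 RNA-seq libraries of HepG2 cells on GRCh38; aligner, counting program and strand setting are not given in the sources used here. Of 59613 lines, 5 were left out (a broken entry of ANK2). No other columns of per-sample values were present. The genes' start and end match GENCODE release 29 in 73.74% of 54985 names. Groups and replicate numbers came from the titles.

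The tests used edgeR 4.0.16 under R 4.3.3 (filterByExpr, minimum count 10 and minimum total 15; TMM; glmQLFTest with the group alone, prior count 0.125), two-sided, adjusted over 19111 genes. Standard errors are the log2 fold change over the root of F, and 95% intervals use the total degrees of freedom. CPM use TMM-scaled library sizes and SD is over libraries. Single ratios were tested by exact permutation (scipy 1.17.1). Alternatives were other scalings, filters, DESeq2 1.42.0, limma 3.58.1 voom, a replicate block, left-out libraries, halved counts, overlapping genes left out and a cycling-gene covariate. Code was tested on simulated data. Intervals cover sampling between these libraries only. The replicate pairs of each group differed by more than counting noise (chi-square per degree of freedom of halved counts from 3.43 to 13.5).

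The members and lists were chosen with earlier results of these data known. Named genes are the 10 members, VEZF1, the 2 list genes with the smallest p in each direction (1 of them is not reported here), the 3 genes most like GFPT1, and genes that share exons with a member. Marker genes come from the lists. AFP, HSPA5, RENBP and the genes named by replicate or by setting were chosen after their values were seen.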

Additional observations from a re-analysis of the deposited data

How the results depend on the processing

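The number of members at an unadjusted p-value under 0.05 was 0 under all alternatives, and their median log2 fold change, 0.00765 in the text, ranged from −0.0210 with overlapping genes left out (7 members) to 0.0349 at a minimum of 1 CPM (9 members), and was also below 0, at −0.0167, without VEZF1-WT replicate 2. The count of all genes with an adjusted p-value under 0.05, 0 in the text, was 16 without a filter on low counts, 6 with the replicate block, 3 with DESeq2 (GABBR1, OR2I1P and UBD, which share exon positions) and 4 without replicate 3 of both groups (the same 3 and LCN2); these genes were named after their values were seen and none is a member. At an unadjusted p-value under 0.05 the count of 408 of 19111 genes tested became 896 of 38745 without a filter. It was 825 of 19111 with the replicate block, 219 of 19111 with DESeq2 and 833 of 19360 without replicate 3 of both groups. With overlapping genes left out it was 154 of 8547. With libraries left out it ranged from 292 of 19367, without VEZF1-WT replicate 1, to 973 of 19883, without replicate 3 of VEZF1-2A.

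Replicate numbers were not shown to pair the samples: deviations from the group means correlated at 0.082, 0.151 and 0.382 for numbers 1, 2 and 3, and VEZF1-WT replicate 2 correlated best with VEZF1-2A replicate 1 (0.181). With the replicate block, 1 neighbouring gene (NANS, unadjusted p-value of 0.00593) and 1 unfolded protein response gene (DNAJB9, 0.0287) passed as higher in VEZF1-WT, and the block changed the call of no member; the paired differences of the 3 ratios were 0.57, 0.08 and 0.00, where 3 pairs cannot give a sign-flip p below 0.25. Without a filter 1 neighbouring gene passed as higher (NANS, 0.0163). With libraries left out, 0 to 1 neighbouring genes passed as higher, 0 to 1 as lower and 0 to 2 unfolded protein response genes as higher; without replicate 3 of both groups these were 1, 1 and 1.

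Of the 10 members, GFPT1, PGM3, UAP1L1, NAGK and OGT changed sign in at least 1 setting, and GFPT2, GNPNAT1, UAP1, AMDHD2 and OGA did not in those in which they were fitted. With the mean level of 12 cycling genes (summed level 1868 to 2373 CPM in VEZF1-WT and 1914 to 2406 CPM in VEZF1-2A) as a covariate UAP1L1 had a log2 fold change of 0.0289. With 1 library left out, log2 fold changes ranged from −0.00659 to 0.0939 for GFPT1, from −0.0400 to 0.147 for PGM3, from −0.172 to 0.0631 for UAP1L1, from −0.126 to 0.0115 for NAGK, from −0.0762 to 0.0165 for OGT, and from −0.874 to −0.158 for GFPT2; the log2 difference of the GFPT1 to GFPT2 ratio ranged from 0.139 without VEZF1-2A replicate 1 to 0.945 without VEZF1-2A replicate 3, that of the UAP1 to UAP1L1 ratio from −0.0244 to 0.246 and that of OGT to OGA from −0.0679 to 0.0514. GFPT2 was not fitted with counts halved or at a minimum of 1 CPM, and GNPNAT1, PGM3 and AMDHD2 not with overlapping genes left out. For the other changes of count or sign, the cause was not tested. Depth limits GFPT2 above all, with 10 to 24 counts per library.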
